A study of Saccharomyces cerevisiae with 50 samples.

Results

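DOM34, HBS1, SKI7, SKI2, SKI3, SKI8 and STM1 encode yeast proteins that act on ribosomes which have stalled or stand idle, and on the mRNA left behind. They were taken by gene symbol, whatever their values, and are 7 of the 6679 open reading frames in the deposited tables. Ribosome footprints and mRNA were sequenced from 24 strains of SK1, a laboratory background of Saccharomyces cerevisiae. Wild type was sampled 2 times and every other strain once, which gave 25 samples with 1 library per assay. The series looked for expression changes tied to the overall rate of protein synthesis in cells short of 1 ribosomal protein.

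All strains were grown with shaking in YEPD with 2% glucose at 30 °C and harvested in exponential phase at an OD600 of 0.6. The 14 RPL strains are altered in genes of the large ribosomal subunit. Of these, 10 carry a single deletion (rpl7a, rpl24a, rpl24b, rpl26a, rpl26b, rpl38, rpl40a, rpl40b, rpl41a or rpl41b), 1 is the double deletion rpl26a rpl26b, and 3 are heterozygous for both copies of a gene (rpl7a/+ rpl7b/+, rpl26a/+ rpl26b/+ and rpl40a/+ rpl40b/+). The 9 RPS strains are altered in genes of the small subunit. Of these, 7 carry a single deletion (rps0b, rps22a in the strains 4662v and 4659, rps25b, rps28a, rps28b or rps29b), 1 is the double deletion rps25a rps25b, and 1 is the heterozygote rps22a/+ rps22b/+. Wild type is represented by 2 samples of strain number 4484, which enter counts and tests as separate samples, and the labels do not say whether these came from separate cultures. Apart from rps22a, each genotype was sequenced once, so that the spread within a class is the spread between strains of different genotype.

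Dom34 resembles the release factor eRF1 and Hbs1 the GTPase eRF3. Together they bind ribosomes whose A site is empty and, with the ATPase Rli1, bring the subunits apart. Stm1 lies in the mRNA channel of ribosomes that are not translating and preserves them when nutrients run out, and Dom34 and Hbs1 help to return such ribosomes to use. Ski2 is the helicase of the Ski complex, Ski3 its scaffold of tetratricopeptide repeats and Ski8 a small WD-repeat subunit present in 2 copies per complex. Ski7 links that complex to the exosome, which degrades the mRNA from its 3′ end, and is the paralog of Hbs1.

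Libraries held 4.10 to 8.57 M footprint reads (M, 1000000 reads) and 0.961 to 3.51 M mRNA reads, and the mRNA libraries of the RPS strains were shallower (median 1.24 M) than those of the RPL strains (2.00 M). Of 38 values of homozygously deleted genes, 36 lay under 5% of the median of the other strains. RPL41A and RPL41B are too short to be among them. In the deposited mRNA signal RPL41A was at 0 in the strain labelled rpl41a and RPL41B at 0 in the one labelled rpl41b, while both were above 0 in all 24 other samples, and in footprints both were at 0 in every sample. The exceptions were RPS22A mRNA (93.4% of that median) and footprints (111%) in the library pair labelled rps22a (4662v). The footprint library labelled rpl26a/+ rpl26b/+ (4654v) held 83 reads of RPS0A, 1.00% of the usual level, although its label names no deletion of that gene. In this library RPL26A and RPL26B stood at 99.9% and 101% of the median of the other strains, against 53.1% and 51.2% in the mRNA library of the same label. The translational efficiency of 4654v sets these differing libraries side by side, and the part of this label in the results was not tested. The labels were kept, and the results below were also computed without 4662v, 4654v and the strain labelled rpl40a/+ rpl40b/+ (3654v), whose RPL40A mRNA stood at 96.4% of that of the other strains. In rpl7a/+ rpl7b/+, RPL7A stood at 66.7% in mRNA and 65.4% in footprints, and RPL7B at 423% and 394%. In rps22a/+ rps22b/+, RPS22A stood at 56.2% and 55.7%, and RPS22B at 214% and 257.5%. A further alternative left out all 4 double heterozygotes.

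STM1 stood far above the other 6 genes in both assays. Its mRNA averaged 2789 ± 179 reads per kilobase and per 1000000 reads (RPKM; SD, n = 25 samples), higher than 98.6% of the 5095 genes tested in mRNA. Its footprints averaged 5395 ± 442 RPKM, higher than 98.3% of the 4219 genes tested in footprints. These values are shares of a library, so that less RNA per cell and fewer cells holding it cannot be told apart. STM1 (chromosome XII, coding length 822 nt) was covered by 15904 to 34376 footprint reads per library and by 2013 to 6995 mRNA reads.

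The other genes lay in the middle or lower part of the range of all genes. SKI8 (chromosome VII, 1194 nt) was the next highest, with 82.8 ± 11.3 RPKM of mRNA and 71.2 ± 13.9 RPKM of footprints. Among the mRNAs, SKI2 (chromosome XII, 3864 nt) at 60.9 ± 6.12 RPKM, HBS1 (chromosome XI, 1836 nt) at 59.7 ± 9.13 RPKM and DOM34 (chromosome XIV, 1161 nt) at 57.0 ± 6.38 RPKM were not separated by their spread. SKI2 was above HBS1 in 16 of 25 samples and HBS1 above DOM34 in 12 of 25. SKI3 (chromosome XVI, 4299 nt) followed with 49.2 ± 3.34 RPKM, below DOM34 in 23 of 25 samples, and SKI7 (chromosome XV, 2244 nt) was the lowest in all 25 samples with 26.98 ± 3.72 RPKM.

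The order was different in footprints. DOM34 (58.7 ± 9.49 RPKM) and HBS1 (54.0 ± 5.35 RPKM), the partners in ribosome rescue, lay next to each other and changed places between strains, with DOM34 higher in 17 of 25. SKI2 (31.0 ± 4.80 RPKM) and SKI3 (27.9 ± 3.02 RPKM) lay well below them, and SKI2 was above SKI3 in 23 of 25 samples. SKI7 was again the lowest, at 14.4 ± 1.96 RPKM, which was higher than 10.1% of the genes tested. The lowest coverage of any of the 7 genes was 56 mRNA reads, for DOM34, and 124 footprint reads, for SKI7.

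**Figure D1:**
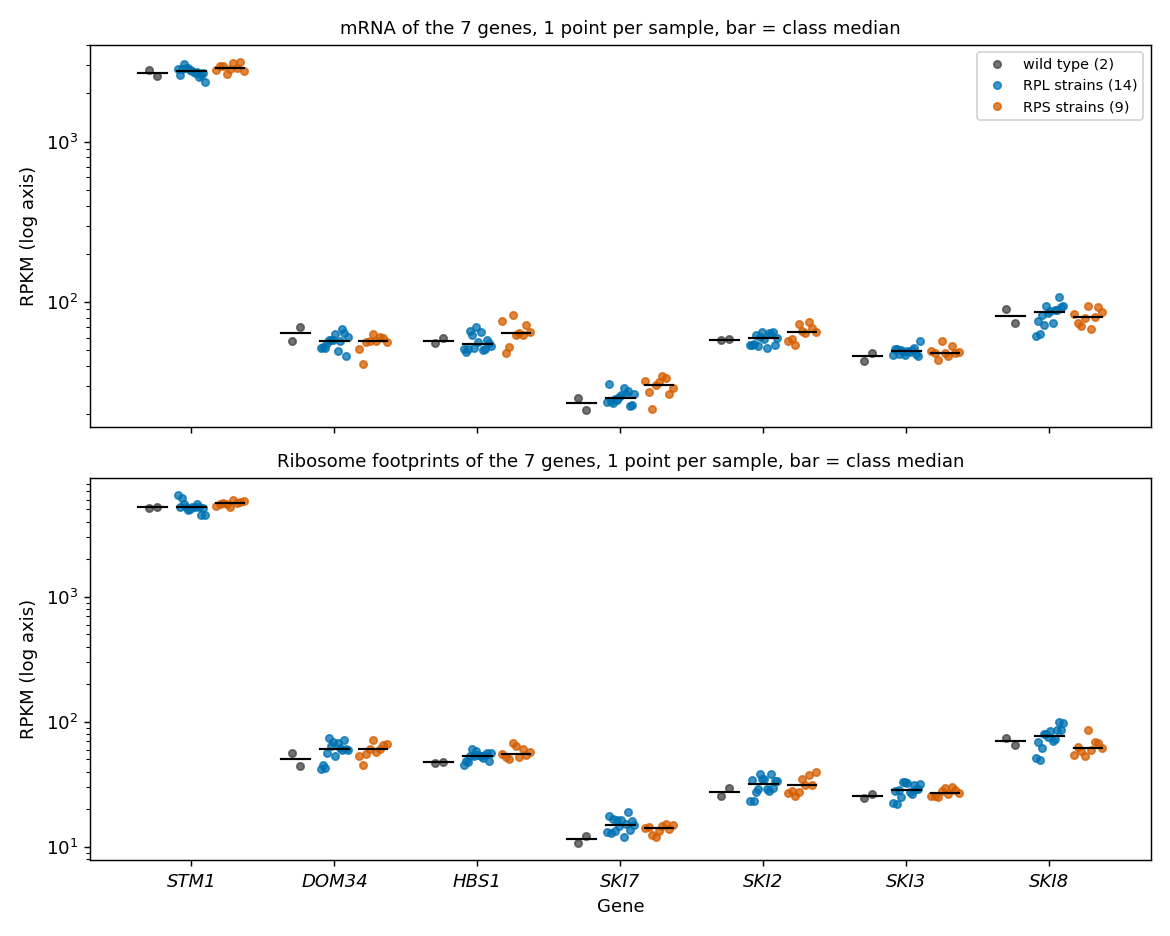
Levels of mRNA (top) and ribosome footprints (bottom) of the 7 genes in RPKM on a log axis, with 1 point per sample (2 wild-type, 14 RPL and 9 RPS) and a bar at the class median. STM1 lies more than 20 times above the other genes, and the 3 classes overlap for nearly every gene.

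Levels were steady across strains for some members and not for others. SKI3 mRNA had a coefficient of variation of 6.80% over the 25 samples, and 3.6% of the 1346 genes with a like number of reads varied less. Within RPL strains its spread of 5.56% was close to the counting error of 5.04%. HBS1 footprints varied by 9.92%, and 9.2% of 1572 genes with a like number of reads varied less. SKI8 footprints varied the most of the 7, by 19.5% over strains, from 49.7 RPKM in rpl41a to 99.1 RPKM in rpl40a. Of 1723 genes with a like number of reads, 81.3% varied less. Genes with a like number of reads are those whose mean lay within a factor of 2 of the member's, and the percentages describe these libraries only.

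The strains rpl41a and rpl41b, which each lack 1 copy of the gene for the very small large-subunit protein L41, lay at an edge of the footprint range for most members. They were the lowest of 25 samples for DOM34 (42.4 and 41.6 RPKM), SKI2 (23.2 and 23.4 RPKM), SKI3 (21.9 and 22.6 RPKM) and SKI8 (49.7 and 51.7 RPKM). For STM1 they were the 2 highest, with 6154 and 6489 RPKM. HBS1 footprints ranked 3 and 1 from the lowest, with 47.7 and 44.9 RPKM. For SKI7 neither lay at an edge, with 12.9 and 13.1 RPKM. STM1 mRNA in the same strains was 2860 and 2832 RPKM, close to the median of 2802 RPKM over all samples. SKI8 was lowest in mRNA as well, with 63.3 and 61.2 RPKM. The mRNA of DOM34, HBS1, SKI2 and SKI7 ranked 3 to 7 from the lowest in both strains, and that of SKI3 ranked 20 and 5. Low footprints in rpl41a were not limited to the members. Genes of a coding length like that of a member had their lowest median footprint deviation in rpl41a, for every member. This deviation ranged from -0.21 for genes like SKI3 in length to -0.15 for genes like STM1, although STM1 itself was high there. The part of this shift in the values of the members was not tested. No test was made of these 2 strains, which were singled out after their values were seen.

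Translational efficiency, the log2 footprint level minus the log2 mRNA level of the same strain, divided the 7 genes. The median of the 4196 genes measured in both assays was -0.21. STM1 had a mean efficiency of 0.95 ± 0.10 and lay above the median of all genes in 25 of 25 samples. SKI2 at -0.96 ± 0.20, SKI7 at -0.86 ± 0.24 and SKI3 at -0.80 ± 0.15 lay below it in 25 of 25 samples, at a level that 19.5% to 25% of all genes fell under. SKI8 (-0.23 ± 0.19), HBS1 (-0.13 ± 0.16) and DOM34 (0.03 ± 0.25) lay on both sides, above the median of all genes in 14, 16 and 20 samples.

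**Figure D2:**
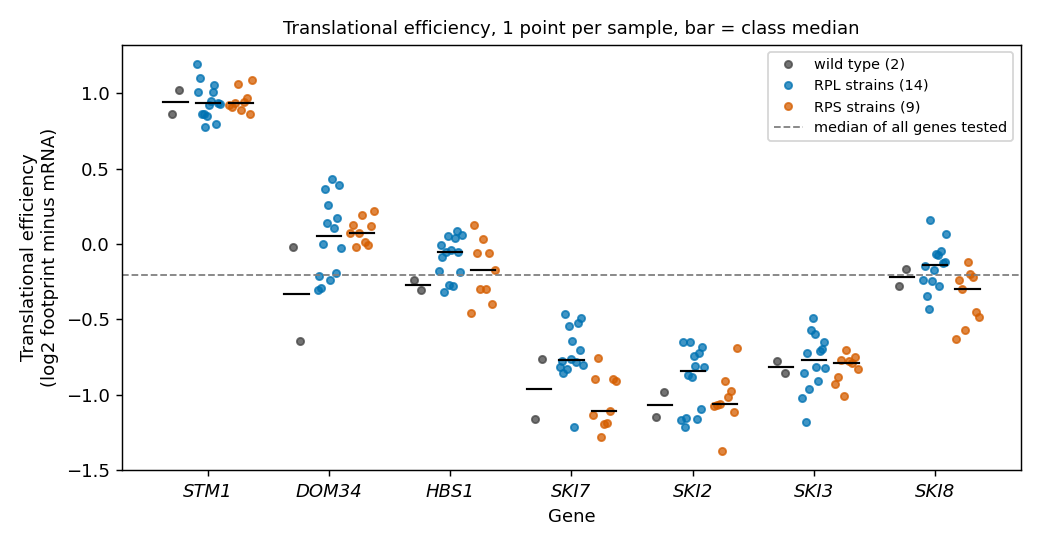
Translational efficiency of the 7 genes (log2 footprint minus log2 mRNA), with 1 point per sample, a bar at each class median and a dashed line at the median of all genes tested in both assays (-0.21). All points of STM1 lie above the line, all points of SKI2, SKI3 and SKI7 lie below it, and SKI8 lies around it.

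The helicase and scaffold of the Ski complex thus had fewer footprints per mRNA than its small subunit. SKI3 (4299 nt), SKI2 (3864 nt) and SKI7 (2244 nt) have the longest coding sequences of the members, and STM1 (822 nt) the shortest. The part of coding length in translational efficiency was not tested. The ratio of SKI8 to SKI2 had a median of 2.24 in footprints (1.55 to 3.33) and of 1.35 in mRNA (1.05 to 1.71), and was higher in footprints in 25 of 25 samples. The ratio of SKI3 to SKI2 was 0.929 in footprints and 0.807 in mRNA, and higher in footprints in 20 of 25 samples. In a sign-flip permutation test over the 25 samples the difference was 0.75 log2 units for SKI8 to SKI2 (adjusted p = 2e-05, from the smallest p that 100000 resamples can give) and 0.16 for SKI3 to SKI2 (adjusted p = 0.000453). These tests, adjusted over 4 ratios, were chosen after the values were seen. Apart from the pseudocount, each difference restates the gap in translational efficiency between the genes of the ratio, so the tests add no separate support.

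For the rescue factors the same comparison gave a median DOM34 to HBS1 ratio of 1.11 in footprints and 1.00 in mRNA (difference 0.17 log2 units, higher in footprints in 18 of 25 samples, permutation test, adjusted p = 0.0122). SKI7 stood at 0.261 of its paralog HBS1 in footprints and at 0.459 in mRNA. Its ratio was lower in footprints in all 25 samples, by 0.77 on the log2 scale (0 of 25 higher, permutation test, adjusted p = 2e-05).

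**Figure D3:**
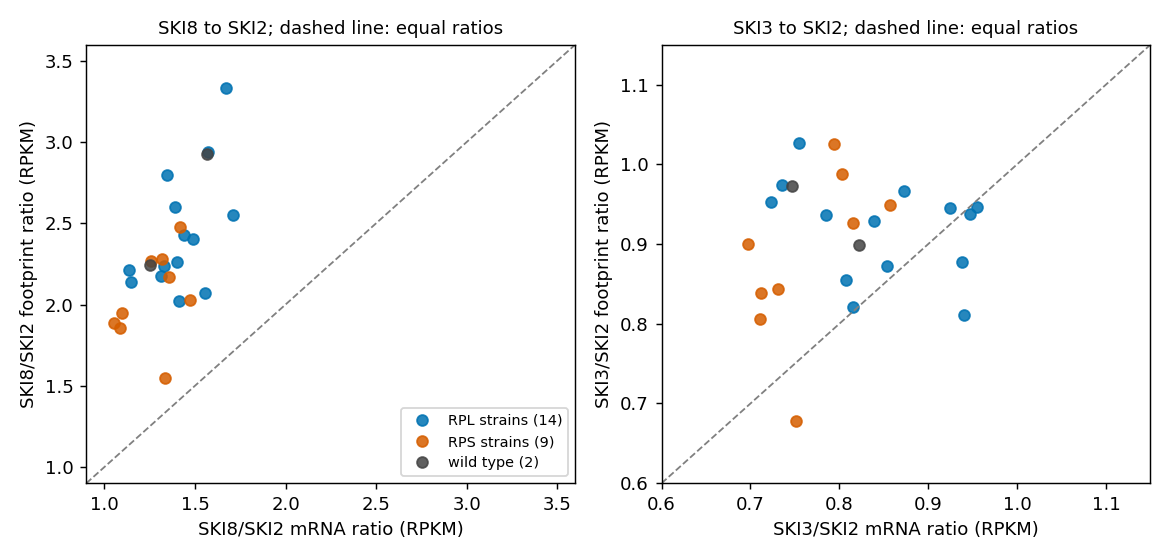
Ratio of SKI8 to SKI2 (left) and of SKI3 to SKI2 (right), each from RPKM, in mRNA (horizontal) and in footprints (vertical), with 1 point per sample and a dashed line where both ratios are equal. All 25 samples lie above the line for SKI8 and 20 of 25 for SKI3.

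RPS strains were then compared with RPL strains. None of the 7 genes passed the test in mRNA, footprints or translational efficiency (limma with Benjamini-Hochberg adjustment over all genes tested, adjusted p under 0.05). Of all genes, 9.68% passed in mRNA (493 of 5095), 5.62% in footprints (237 of 4219) and 1.12% in translational efficiency (47 of 4196). At an unadjusted p under 0.05 the members numbered 3 in mRNA, 1 in footprints and 2 in translational efficiency, against 25.8%, 23.5% and 13.2% of all genes. Without the strains 4662v, 4654v and 3654v, again 0 of 7 passed in each measure. Of all genes, 9.4% then passed in mRNA, 11.1% in footprints and 2.53% in translational efficiency. The lower read depth of the RPS mRNA libraries goes with the class, and its part in these values was not tested.

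Of the rescue factors, DOM34 differed little between the classes. DOM34 mRNA ranged from 46.3 RPKM (rpl24a) over a median of 57.6 to 67.8 RPKM (rpl40b) in RPL strains. In RPS strains it ranged from 41.0 (rps28a) over 57.0 to 62.9 RPKM (rps22a/+ rps22b/+), and wild type had 57.6 and 70.1 RPKM. The ranges overlapped, and the difference of RPS minus RPL was -0.02 log2 units (95% interval -0.17 to 0.12). DOM34 footprints were 41.6 to 74.8 RPKM (median 60.3) in RPL and 45.0 to 71.9 RPKM (median 60.5) in RPS strains, a difference of 0.02 (-0.18 to 0.23).

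HBS1 mRNA was 49.0 to 70.0 RPKM in RPL strains with a median of 54.6. In RPS strains it was 47.9 (rps28a) to 82.9 RPKM (rps25a rps25b) with a median of 63.96, and wild type had 55.2 and 59.6 RPKM. Most RPS strains were above the RPL median (7 of 9), but the ranges overlapped. The difference of 0.19 log2 units (SE 0.08, adjusted p = 0.145 by limma) did not pass, except when the strain rps28a was left out (0.24, adjusted p = 0.0496 by limma). In that setting 9.74% of all genes passed in mRNA. HBS1 footprints were 44.9 to 60.2 RPKM (median 53.6) in RPL and 50.1 to 67.1 RPKM (median 55.5) in RPS strains, a difference of 0.10 (adjusted p = 0.297 by limma).

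SKI7, the bridge to the exosome, had a higher mean in mRNA and a lower mean in footprints in RPS than in RPL strains. Its mRNA was 22.6 to 30.8 RPKM (median 25.3) in RPL strains and 21.6 to 34.6 RPKM (median 30.4) in RPS strains, with 25.3 and 21.4 RPKM in wild type. Its footprints were 12.01 to 19.1 RPKM (median 15.1) in RPL strains and 11.9 to 15.1 RPKM (median 14.1) in RPS strains, with 10.8 and 12.2 RPKM in wild type. In 8 of 9 RPS strains the mRNA was above, and in 8 of 9 the footprints were below, the RPL median.

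The SKI7 mRNA difference was 0.20 log2 units (SE 0.07, adjusted p = 0.0865 by limma) and the footprint difference -0.11 (SE 0.07, adjusted p = 0.345 by limma). Translational efficiency of SKI7 was -1.21 to -0.47 (median -0.77) in RPL strains and -1.28 to -0.76 (median -1.11) in RPS strains, with -1.16 and -0.76 in wild type. Its difference of -0.31 (SE 0.09, 95% interval -0.50 to -0.12) had an unadjusted p of 0.00254 and an adjusted p of 0.109 in limma. It passed without the strain rpl7a/+ rpl7b/+ (-0.35, adjusted p = 0.0460 by limma) and without the 4 double heterozygotes (-0.35, adjusted p = 0.0407), where 3.50% of all genes passed. The mRNA difference passed without rps25b (0.25, adjusted p = 0.0148), with median-of-ratios scaling (0.22, adjusted p = 0.0403) and with quantile normalization (0.23, adjusted p = 0.0292). Under these scalings the footprint difference was smaller, at -0.08 and -0.06, and 11.2% and 12.1% of all genes passed in mRNA. Without rps25b 11.2% of all genes passed in mRNA, and without rpl7a/+ rpl7b/+ 1.29% in translational efficiency.

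SKI8 had the most negative footprint difference of the 7 genes. Its footprints were 49.7 to 99.1 RPKM (median 77.7) in RPL strains and 53.5 to 86.5 RPKM (median 62.0) in RPS strains, with 74.6 and 65.8 RPKM in wild type. In 8 of 9 RPS strains the value was below the RPL median, and rps22a/+ rps22b/+ at 86.5 RPKM was the 1 above. The difference was -0.24 log2 units (SE 0.11, adjusted p = 0.179 by limma). SKI8 mRNA differed by -0.03 (95% interval -0.21 to 0.15), and its sign turned under quantile normalization (0.01). SKI8 translational efficiency differed by -0.21 (SE 0.07, unadjusted p = 0.00788, adjusted p = 0.176 by limma).

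SKI2 mRNA was 51.7 to 65.1 RPKM (median 59.5) in RPL strains and 54.2 to 74.7 RPKM (median 65.3) in RPS strains, with 57.8 and 59.0 RPKM in wild type. Its difference of 0.14 log2 units (SE 0.06, adjusted p = 0.134 by limma) passed with median-of-ratios scaling (0.16, adjusted p = 0.0481) and quantile normalization (0.16, adjusted p = 0.0453). SKI2 footprints differed by 0.01 (95% interval -0.18 to 0.20). SKI3, the scaffold, differed by -0.01 in mRNA (-0.11 to 0.09), with the opposite sign under median-of-ratios scaling (0.01), and by -0.05 in footprints (-0.19 to 0.09).

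STM1, the factor of idle ribosomes, had mRNA of 2373 to 3038 RPKM (median 2746) in RPL strains and 2630 to 3140 RPKM (median 2870) in RPS strains. Its footprints were 4519 to 6489 RPKM (median 5260) in RPL strains and 5227 to 5957 RPKM (median 5624) in RPS strains, with 5131 and 5252 RPKM in wild type. RPS strains were above the RPL median in 8 of 9 cases in each assay. The differences of 0.08 log2 units in mRNA (95% interval -0.01 to 0.16) and 0.08 in footprints (-0.03 to 0.19) did not pass, and translational efficiency differed by 0.01 (-0.09 to 0.11).

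**Figure D4:**
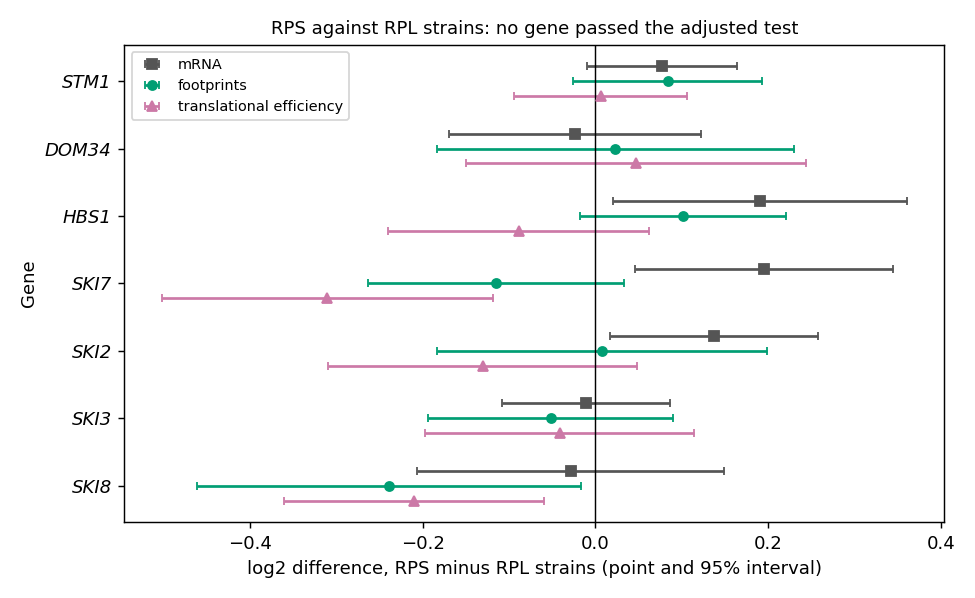
Difference of RPS minus RPL strains on the log2 scale for the 7 genes in mRNA, footprints and translational efficiency (point and 95% interval from limma, 14 RPL and 9 RPS strains). The interval lies wholly on 1 side of 0 for the mRNA of HBS1, SKI7 and SKI2, the footprints of SKI8 and the efficiency of SKI7 and SKI8, and none of these passed after adjustment over all genes.

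The ratios between members were compared between the classes in the same way, with exact permutation tests over strains (two-sided, adjusted over 8 ratios). The geometric mean of the SKI8 to SKI2 footprint ratio was 2.42 in RPL and 2.03 in RPS strains, a difference of -0.25 log2 units (exact p = 0.00867, adjusted p = 0.0550). SKI3 to SKI2 in mRNA was 0.845 in RPL and 0.762 in RPS strains (-0.15, exact permutation test, adjusted p = 0.0550). SKI7 to HBS1 in footprints was 0.285 in RPL and 0.243 in RPS strains (-0.23, exact permutation test, adjusted p = 0.0604). None of the 8 ratios passed, and the remaining adjusted p were 0.0622, 0.0622, 0.359, 0.359 and 0.932 in the exact permutation tests. The 3 named ratios passed once the median shift of genes of like length was taken off each gene (-0.21, -0.15 and -0.24). Each then had an adjusted p of 0.0362 in the exact permutation test, and this alternative was added after the data were seen. These ratios also passed without the strains 4662v, 4654v and 3654v (-0.24, -0.18 and -0.28, exact permutation test, adjusted p of 0.0404, 0.0350 and 0.0396). They did not pass without rps25a rps25b (-0.24, -0.16 and -0.17, with adjusted p of 0.0640, 0.0640 and 0.140). The subtraction by length moved the mRNA ratios of SKI8 to SKI2 to -0.11 (adjusted p = 0.221) and of DOM34 to HBS1 to -0.19 (adjusted p = 0.121).

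Against wild type, none of the 7 members passed in any measure, in RPL or in RPS strains. The background was the same, since 0% of all genes passed in each of these 6 comparisons, with 109 to 518 genes at an unadjusted p under 0.05 in limma. SKI7 footprints were above the mean of both wild-type libraries in 14 of 14 RPL strains (0.37 log2 units, 95% interval 0.10 to 0.63, adjusted p = 0.9997 by limma). HBS1 footprints were 46.6 and 47.9 RPKM in wild type and at least 50.1 RPKM in every RPS strain, so that the ranges did not overlap (0.26, 95% interval 0.04 to 0.48, adjusted p = 0.482 by limma). DOM34 translational efficiency was -0.64 and -0.02 in wild type and -0.02 to 0.22 in RPS strains (0.42, adjusted p = 0.585 by limma). With 2 wild-type libraries, differences of this size could not be separated from the spread after adjustment over all genes.

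Genes that work next to these factors were read from 4 lists. Of 19 genes of collision sensing and ribosome quality control, 1 was higher and 2 were lower in RPS than in RPL mRNA. In footprints 1 of 17 tested was lower. Over all genes 9.68% passed in mRNA and 5.62% in footprints, and shares this close to the background are not read as a property of the list. The median difference of that list was 0.04 log2 units in mRNA and -0.01 in footprints, against -0.02 and -0.04 for all genes. MBF1, a conserved factor that limits frameshifting on collided ribosomes, was lower in RPS than in RPL strains in both assays. MBF1 mRNA was 967 ± 292 RPKM in RPL and 501 ± 73.2 RPKM in RPS strains (-0.90 log2 units, SE 0.15, adjusted p = 0.00103 by limma). MBF1 footprints were 2677 ± 903 RPKM in RPL and 1396 ± 244 RPKM in RPS strains (-0.88, SE 0.17, adjusted p = 0.0122 by limma). MBF1 passed in both assays under each of the 38 alternatives tried per assay.

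ASC1, a protein of the small subunit that is needed to sense collisions, was lower in the mRNA of RPS than of RPL strains. It averaged 3330 ± 282 RPKM in RPL and 2811 ± 464 RPKM in RPS strains (-0.26 log2 units, adjusted p = 0.0236 by limma). Its call was lost with median-of-ratios scaling (adjusted p = 0.0902), without the 4 double heterozygotes (0.0787), and without rps22a (4659), rps28b or rps0b (adjusted p of 0.0568, 0.0524 and 0.0605). SYH1, which acts in the decay of mRNA that carries stalled ribosomes, was higher in the mRNA of RPS than of RPL strains. It averaged 82.2 ± 5.06 RPKM in RPL and 93.9 ± 12.2 RPKM in RPS strains (0.18, adjusted p = 0.0495 by limma). That call was lost when any 1 of 19 samples was left out (adjusted p up to 0.112) as well as without 4662v, 4654v and 3654v (0.0768), without the 4 double heterozygotes (0.124), with no filter on low values (0.055) and without wild type in the fit (0.0578).

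Of 12 genes of nonsense-mediated and 5′ to 3′ decay, 1 passed in mRNA, a share no higher than that of all genes (9.68%). This was NAM7, the helicase also known as UPF1. Its mRNA was 111 ± 5.41 RPKM in RPL and 128 ± 15.3 RPKM in RPS strains (0.19 log2 units, adjusted p = 0.0287 by limma). The call was lost without any 1 of the RPS strains rps22a (4659), rps22a/+ rps22b/+, rps29b and rps0b (adjusted p of 0.0709, 0.0651, 0.0534 and 0.0677), and without the 4 double heterozygotes (0.0946). Of 7 genes of termination, recycling and idle ribosomes, TMA64, a recycling factor for the small subunit, passed in mRNA (1 of 7, against 9.68% of all genes). TMA64 mRNA was 34.1 ± 3.48 RPKM in RPL and 28.4 ± 3.45 RPKM in RPS strains (-0.26, adjusted p = 0.0231 by limma). That call was lost without the 4 double heterozygotes (adjusted p = 0.0578 by limma). None of the 14 genes of the exosome and its cofactors passed in any measure. Translational efficiency did not pass for any gene of the 4 lists, and no list gene passed against wild type.

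Finally, the strain-to-strain pattern of the members was compared over the 25 samples (on log2(RPKM + 1), 12 relations, permutation tests with Benjamini-Hochberg adjustment). SKI8 footprints followed SKI8 mRNA most closely (Pearson r = 0.74, Spearman rho = 0.73, adjusted permutation p = 0.00012 and 0.00066). SKI7 footprints followed its mRNA the least (r = 0.17, rho = 0.16, adjusted permutation p = 0.458 and 0.471). The r of HBS1 was 0.62, of STM1 0.57, of SKI2 0.43, of DOM34 0.31 and of SKI3 0.30, against a median of 0.43 over 4196 genes with quartiles of 0.22 and 0.66. Without the 2 strains farthest from the median of its mRNA, SKI8 kept an r of 0.64. Within the classes its r was 0.85 in RPL strains and 0.56 in RPS strains, where the exact permutation p over 9 strains was 0.115. The order of the members depended on the setting. Within RPS strains DOM34 had the highest r, 0.90. Once the median shift of genes of like length was taken off each gene, r was 0.75 for STM1, 0.62 for HBS1 and 0.59 for SKI8. It was then 0.27 for SKI3, 0.25 for SKI2, 0.10 for DOM34 and 0.08 for SKI7.

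Footprints of SKI2 and SKI3 rose and fell together, with r = 0.81 and rho = 0.80 (adjusted permutation p = 0.00012 for each), and r = 0.87 without the 2 strains farthest from the SKI2 median. Both genes are much longer than the median tested gene of 1146 nt, and long genes shifted together between these libraries. The median deviation of 209 genes of a length like that of SKI2 had an r of 0.90 with SKI2. That of 147 genes of a length like that of SKI3 had an r of 0.82 with SKI3. After this deviation was subtracted from each gene, r between SKI2 and SKI3 was 0.18 and rho 0.21 (adjusted permutation p = 0.480 and 0.410). Within the classes the unadjusted r was 0.91 in RPL strains and 0.67 in RPS strains.

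DOM34 and HBS1, of shorter coding length, kept most of their correlation. Their footprints had r = 0.68 and rho = 0.66 (adjusted permutation p = 0.0006 and 0.00152) and, after the subtraction, r = 0.60 and rho = 0.66 (adjusted permutation p = 0.00452 and 0.00288). Without rpl41a and rpl41b r was 0.57, within RPL strains 0.83 and within RPS strains 0.56 (exact permutation p over 9 strains 0.117). A positive r was not limited to the partners. After the subtraction r of DOM34 was 0.55 with SKI3, 0.52 with SKI2, 0.40 with SKI8, -0.24 with SKI7 and -0.26 with STM1. That of HBS1 was 0.41 with SKI3, 0.11 with SKI2, 0.075 with STM1, -0.07 with SKI8 and -0.30 with SKI7. SKI3 with SKI8 had r = 0.69 and SKI2 with SKI8 r = 0.57, and these were 0.45 and 0.46 after the subtraction. SKI7 and HBS1, the paralogs, had r = 0.06 and rho = 0.09 (adjusted permutation p = 0.792 and 0.657).

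Of the 21 pairs among the 7 genes, SKI8 and STM1 had the r of largest size in footprints, -0.82 (rho -0.79), and -0.79 after the subtraction. This pair was noticed after the values were seen and is given without a test. Both genes of a strain come from 1 library and are scaled to the same library total. STM1 is itself a part of that total, with a mean of 24090 reads in libraries of 4.10 to 8.57 M footprint reads. The pair also went with a wider shift. The median deviation of 1069 genes of a length like that of SKI8 had an r of 0.76 with SKI8. That of 857 genes of a length like that of STM1 had an r of -0.70 with STM1. The part of this shift in the r of the pair was not tested. Without the 2 strains farthest from the SKI8 median, rpl40a and rpl7a, r was -0.73, and without rpl41a, rpl41b, rpl40a and rpl7a it was -0.60. The r was -0.92 within RPL strains and -0.26 within RPS strains.

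**Figure D5:**
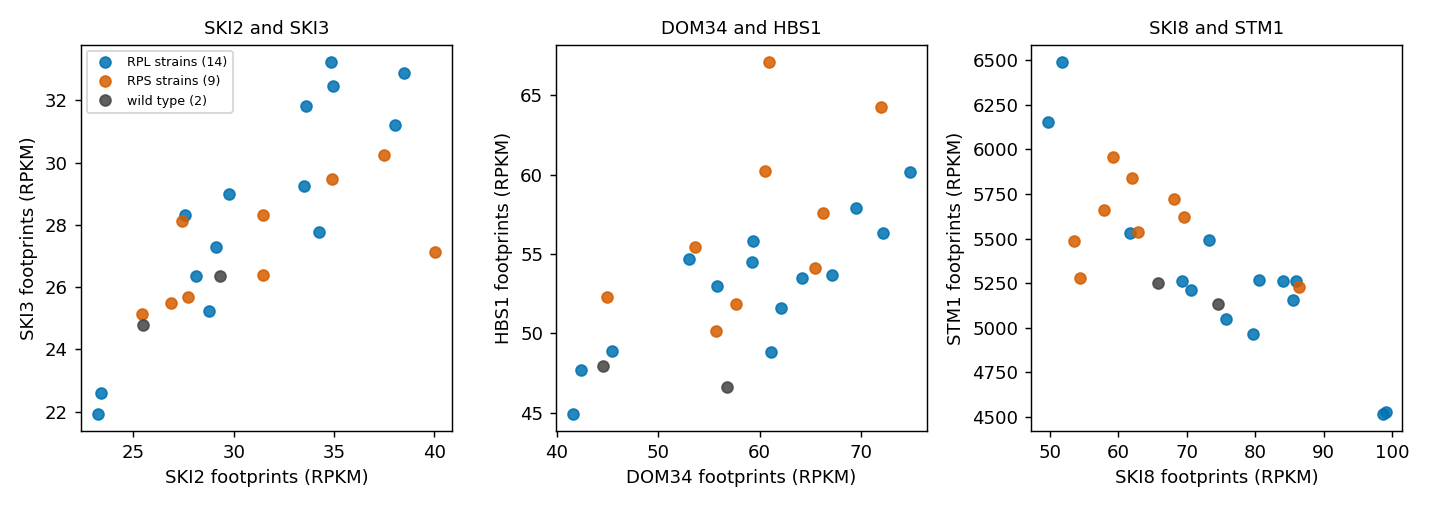
Footprint levels in RPKM of SKI2 and SKI3, of DOM34 and HBS1, and of SKI8 and STM1, with 1 point per sample. The first 2 pairs rise together (r = 0.81 and 0.68), and STM1 is lower where SKI8 is higher (r = -0.82), with rpl41a and rpl41b at the upper left of the third panel and rpl40a and rpl7a at its lower right.

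The footprint patterns most like that of each member, by Pearson r over the 25 samples among 4218 other genes, are given as a description. For SKI2 they were MCM6, a subunit of the replicative helicase (r = 0.92), the nuclear pore gene NUP133 (0.90) and MDN1, which matures large subunits (0.90), with coding lengths of 3054 to 14733 nt. For SKI3 they were TAF2 of the transcription factor TFIID (0.92), YOR238W (0.88) and the ubiquitin ligase TOM1 (0.88). For SKI8 they were GET3, a targeting ATPase (0.91), and the proteasome genes SCL1 (0.91) and PRE2 (0.90).

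For DOM34 the most similar patterns were FPR3, a nucleolar proline isomerase (r = 0.80), GRX3, a glutaredoxin (0.80), and EFG1, which acts in small-subunit maturation (0.79). For HBS1 they were HEM12 of heme synthesis (0.79), the actin-related ARP2 (0.78) and NFU1 of iron-sulfur assembly (0.77). For SKI7 they were TFA1 of the transcription factor TFIIE, the telomere-binding TBF1 and the kinase HSL1 (0.80 each). For STM1 they were EGD1 of the nascent-chain-associated complex (0.80), the large-subunit gene RPL13A (0.80) and SBH2 of a translocon (0.78).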

How the data were processed

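Ribosome footprints and mRNA were measured in 24 strains, wild type in 2 samples, with 1 library per sample and assay. Counts of samples and tests treat these 25 samples as separate. The deposited tables, 1 for each assay, have columns that the authors headed RPKM but that hold a signal proportional to reads times length. Per the submitters' processing notes, CASAVA, bcl2fastq 2.17 and Bowtie2 were used. The genome build and the handling of strand and of multi-mapping reads are not stated in any source used here.

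The step of 1 read was proportional to the coding length minus 60 nt in each library, so whole reads were recovered (tolerance 0.03 reads) and RPKM recomputed over that length. Of 5802 open reading frames, 87.6% were whole in every library at the length in the RefSeq gene table (R64), against 16 at another gene's length. The 7 members were among the former. The design had allowed for this recomputation. Of 6679 open reading frames 5994 matched that table, 1135 lengths were found from the values, 351 were at 0, and 112 without a length (at most 0.000485% of the signal) and 1 unnamed totals line per table were left out.

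Genes that averaged 10 RPKM or more were tested with limma 3.58.1 (R 4.3.3, mean-variance trend) on log2(RPKM + 1), where the pseudocount of 1 slightly shrinks low genes, with 3 classes in 1 fit, two-sided. Translational efficiency was taken within a strain, so the strain number in the labels, shared by both libraries, was the block. Ratios used RPKM without a pseudocount. The wild-type replicate numbers 1 and 2 pair only the assays. Genes of like length lay within a factor of 1.25 in coding length. The fit was checked on simulated data. Depth was 4.10 to 8.57 M footprint and 0.961 to 3.51 M mRNA reads (M, 1000000 reads), and counting errors cover sampling of reads only.

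The members, lists, tests and alternatives were chosen with earlier results of these data known. All 7 members were named in every comparison, up to 4 genes past the test per list and measure, and the 3 most similar genes per member. RPS and RPL strains are compared with the same wild-type libraries. Software was Python 3.11.15, numpy 2.4.6, scipy 1.17.1 and pandas 2.3.3.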

Additional observations from a re-analysis of the deposited data

Results flagged for a closer look

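SKI8 footprints in the strain rps22a/+ rps22b/+ were 86.5 RPKM, apart from the other 8 RPS strains. The gap to the next strain was 0.513 of the whole range of the 9 RPS strains, over the critical value of Dixon's test for 9 samples. It was the 1 value set apart among 29 groups looked at, and chance alone sets apart about 5% of such groups. SKI8 mRNA in that strain was 94.2 RPKM, the highest of the RPS strains.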

How the results depend on the processing

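In the 9 comparisons of the 7 members, the count that passed stayed at 0 of 7 under all alternatives except those named here. Of the mRNA differences between RPS and RPL strains, 2 passed after quantile normalization and 2 under median-of-ratios scaling (SKI2 and SKI7 in both), where 12.1% and 11.2% of all genes passed in place of 9.68%. In translational efficiency 1 passed without the 4 double heterozygotes (SKI7), where 147 of all genes passed in place of 47. When 1 strain was left out at a time, 0 to 1 passed in mRNA (HBS1 without rps28a, SKI7 without rps25b) and 0 to 1 in translational efficiency (SKI7 without rpl7a/+ rpl7b/+). Of all genes, 9.74% passed in mRNA without rps28a and 11.2% without rps25b, and 1.29% in translational efficiency without rpl7a/+ rpl7b/+. Without the replicate block, that is with both libraries of a strain treated as unpaired, 0 of 7 members passed in translational efficiency, and 3 of all genes passed in place of 47. With a minimum of 30 RPKM, SKI3 footprints and both assays of SKI7 were not tested, and the cause of the changed calls was not tested.

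Differences near 0 changed sign under some settings, and none of these values passed. SKI2 footprints differed by -0.014 without the double heterozygotes, and from -0.037 to 0.042 when 1 strain was left out. DOM34 mRNA differed by 0.00064 with quantile normalization (-0.046 to 0.029 without 1 strain), and DOM34 footprints by -0.013 to 0.072 without 1 strain. SKI3 mRNA differed by 0.013 with median-of-ratios scaling, 0.021 with quantile normalization and 0.00054 with totals free of ribosomal protein genes (-0.038 to 0.011 without 1 strain). SKI8 mRNA differed by 0.0094 with quantile normalization (-0.062 to 0.0028 without 1 strain). STM1 translational efficiency differed by -0.019 with quantile normalization, -0.0048 without 4662v, 4654v and 3654v, -0.0070 without rps25a rps25b and -0.0019 without the double heterozygotes (-0.010 to 0.025 without 1 strain).

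Several ratios of RPS to RPL strains crossed the threshold, all in the direction first given. Less the deviation of genes of like length, added after the data were seen, SKI3 to SKI2 in mRNA (-0.155), SKI7 to HBS1 in footprints (-0.245) and SKI8 to SKI2 in footprints (-0.211) passed. Without 4662v, 4654v and 3654v the same ratios (-0.178, -0.276 and -0.244) and SKI8 to SKI2 in mRNA (-0.212) passed. Without the double heterozygotes DOM34 to HBS1 in mRNA (-0.318), SKI7 to HBS1 in footprints (-0.276) and SKI8 to SKI2 in footprints (-0.279) passed. SKI7 to HBS1 in mRNA turned from 0.0088 to -0.0081, -0.017 and -0.059 under these 3 settings and ranged from -0.033 to 0.049 without 1 strain.

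When 1 strain was left out, SKI8 to SKI2 in footprints ranged from -0.285 to -0.200 and passed without any 1 of rpl38, rpl41a, rpl26a, rpl26b, rpl26a/+ rpl26b/+, rpl7a/+ rpl7b/+, rpl40a, rps22a (4662v), rps28a, rps25b and rps22a/+ rps22b/+. SKI3 to SKI2 in mRNA ranged from -0.172 to -0.135 and passed without rpl41a, rpl26a, rpl26a/+ rpl26b/+, rpl7a/+ rpl7b/+, rpl40a, rps22a (4662v), rps28a or rps25b. SKI7 to HBS1 in footprints ranged from -0.253 to -0.170 and passed without rpl41a, rpl26a/+ rpl26b/+, rpl7a/+ rpl7b/+, rpl40a or rps28a. DOM34 to HBS1 in mRNA ranged from -0.257 to -0.170 and passed without rpl26a/+ rpl26b/+, rpl7a/+ rpl7b/+ or rps25b. SKI8 to SKI2 in mRNA ranged from -0.197 to -0.137 and passed without rpl41a or rps22a (4662v).

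Correlations within the 9 RPS strains did not pass, at r of 0.559 for DOM34 with HBS1, 0.670 for SKI2 with SKI3, 0.584 for SKI2 with SKI8 and 0.660 for SKI3 with SKI8. The same held for footprints with mRNA of HBS1 (0.571), SKI8 (0.558) and STM1 (0.487), while DOM34 passed by r (0.905). By rho DOM34 did not pass (0.783, adjusted exact permutation p = 0.1475). Of the 9 RPS strains, rps28a had the lowest DOM34 value in mRNA (41.0 RPKM) and in footprints (45.0 RPKM). Within RPL strains HBS1 (0.590) and STM1 (0.550) no longer passed. Without the 2 strains farthest from the median SKI2 passed (0.470) and STM1 did not (0.427). SKI2 with SKI3 fell to 0.176 less the deviation of genes of like length, and SKI7 with HBS1 turned to -0.299 there, to -0.252 within RPS strains and to -0.110 without the 2 farthest strains. Depth limits the mRNA of DOM34 and SKI7 most, with 56 and 58 reads in their shallowest libraries.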
